A study of Mus musculus with 99 samples.

Results

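Oligodendrocytes are the glial cells that wrap axons of the central nervous system in myelin, and 33 genes of that lineage were followed among the 37991 genes counted in mouse brain. The genes were taken by symbol from a list of myelin and oligodendrocyte genes, with no threshold on their values but with earlier results of these data known, and every one was found in the count table by its Ensembl identifier. They fall into 14 proteins of the sheath and its junctions, 6 enzymes and carriers, 5 transcription factors, 2 receptors and 6 others. The study used chronic social defeat stress. In that procedure a mouse repeatedly meets an aggressor, and its later behaviour places it among the susceptible or the resilient.

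The libraries covered the ventral hippocampus, the basolateral amygdala, the nucleus accumbens and the prefrontal cortex, with 7 conditions in each. Controls, resilient mice and susceptible mice had received saline, and susceptible mice had also received ketamine or imipramine, each divided into responders and non-responders. In each region there were 5 control libraries (4 in the hippocampus), 4 resilient, 3 susceptible saline, 3 ketamine responder, 3 ketamine non-responder, 3 imipramine responder and 4 imipramine non-responder libraries, 99 in all. Each library was made from tissue of 2 mice. The sources used here give no strain, age, sex, dose or day, and leave unstated if any mouse gave more than 1 region. In every comparison with susceptible mice the same 3 saline libraries of that region were used, so those comparisons share their error.

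Total counts ran from 14459028 to 59187954 per library, with a median of 31086418. The identity of the regions could be checked in the counts: all 10 striatal projection neuron markers were called higher in the accumbens of controls than in the cortex. A pair of imipramine responder libraries, replicate 2 of the amygdala and replicate 3 of the accumbens, had the most negative relation of counts to exon length of the 99. Libraries of other conditions had negative relations too, as described with the imipramine results. Tissue was dissected in bulk, so fewer oligodendrocytes and less RNA per oligodendrocyte cannot be told apart in any result below.

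Myelin is a spiral of oligodendrocyte membrane, rich in galactolipid and cholesterol and held together by proteins such as myelin basic protein (Mbp). The precursor cells, the lineage factors Olig2, Olig1 and Sox10, and then Myrf, the factor that switches on the genes of the mature sheath, act one after another in its formation. In adult brain the sheath is long-lived, new oligodendrocytes still form from precursors, and myelin of the prefrontal cortex is known to respond to social experience in mice.

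The promoters were searched for short motifs of these factors. RefSeq (GRCm38.p6) held promoters for 24 of the 33 genes, 32 start sites in all, each from 250 bases before the start to 50 bases after it. The 4 below were chosen after their matches were seen: Cnp, whose level followed the rest of the list most closely, and 3 genes that varied between conditions in the prefrontal cortex. Capitals mark matches on either strand to 5 short motifs. The SOX core, searched as ACAAAG, is bound by factors of the Sox family. The E-box, searched as CAGCTG, is bound by the helix-loop-helix family to which Olig1 and Olig2 belong. The MYRF core was searched as CTGGCAC, from the motif known for Myrf. The general promoter elements were the GC box, searched as GGGCGG, and the TATA box, searched as TATAAA. The promoters lie at chr11:100574689-100574988 on the plus strand (Cnp), chr19:41077064-41077363 on the minus strand (Opalin), chr11:73324588-73324887 on the minus strand (Aspa) and chr2:58052815-58053114 on the minus strand (Ermn), in GRCm38.p6.
Cnp: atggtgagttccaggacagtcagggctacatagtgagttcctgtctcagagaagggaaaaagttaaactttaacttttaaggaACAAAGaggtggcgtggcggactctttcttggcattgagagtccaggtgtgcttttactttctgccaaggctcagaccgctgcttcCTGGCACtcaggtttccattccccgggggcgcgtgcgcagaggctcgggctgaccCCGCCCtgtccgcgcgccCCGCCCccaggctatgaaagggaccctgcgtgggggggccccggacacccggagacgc
Opalin: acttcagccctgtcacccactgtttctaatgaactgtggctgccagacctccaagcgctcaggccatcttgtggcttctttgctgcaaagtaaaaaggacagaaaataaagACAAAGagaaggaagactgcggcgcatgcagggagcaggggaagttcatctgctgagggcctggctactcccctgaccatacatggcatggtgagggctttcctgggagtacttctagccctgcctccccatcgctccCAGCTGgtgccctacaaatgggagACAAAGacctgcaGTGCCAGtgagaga
Aspa: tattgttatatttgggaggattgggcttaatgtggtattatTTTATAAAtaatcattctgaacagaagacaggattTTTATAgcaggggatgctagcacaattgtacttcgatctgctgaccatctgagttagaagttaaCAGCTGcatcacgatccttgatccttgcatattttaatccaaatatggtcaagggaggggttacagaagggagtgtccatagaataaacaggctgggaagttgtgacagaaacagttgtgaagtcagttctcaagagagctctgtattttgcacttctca
Ermn: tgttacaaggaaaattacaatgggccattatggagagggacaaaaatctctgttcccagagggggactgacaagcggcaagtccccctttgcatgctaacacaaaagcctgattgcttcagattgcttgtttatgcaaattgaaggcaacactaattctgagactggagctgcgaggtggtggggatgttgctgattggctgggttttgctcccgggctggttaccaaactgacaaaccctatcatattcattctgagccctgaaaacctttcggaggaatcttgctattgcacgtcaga

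The Cnp promoter held a SOX core that began 167 bases before the start, a MYRF core 81 bases before it, and GC boxes 26 and 8 bases before it. The Opalin promoter held SOX cores, an E-box and a MYRF core that began at base 36 after the start. The Aspa promoter held an E-box 110 bases before the start and 3 TATA-like matches, of which the first 2 overlap. Ermn had no match to any of the 5 motifs in this window, which says nothing about the factors themselves. Among the 32 promoters of the list, 7 (21.9%) held the MYRF core, against 5.0% of all 32851 promoters, and 10 (31.2%) held the SOX core, against 18.7%. The E-box stood in 4 (12.5% against 16.3%), the GC box in 11 (34.4% against 35.7%) and the TATA box in 3 (9.4% against 13.6%). Genes with the MYRF core were Mag, Cnp, Opalin, Hapln2, Tmem125 and Lpar1. Some genes have several start sites that overlap: counted once per gene, 6 of 24 (25.0%) held the MYRF core against 5.7% of 27025 genes, and 7 (29.2%) the SOX core against 21.0%. These shares are descriptions with no test.

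The level of the genes differed first by region. In control libraries the ventral hippocampus had the most RNA of the list, then the nucleus accumbens, then the basolateral amygdala, and the prefrontal cortex had the least. Counts of all 33 genes together made up 0.123 to 0.279% of a cortical library, 0.235 to 0.447% of an amygdala library, 0.463 to 0.761% of an accumbens library and 0.521 to 0.855% of a hippocampal library, over all conditions. Values here are CPM, the counts scaled to library size after TMM correction, and a gene was called when its adjusted p from edgeR's quasi-likelihood test fell below 0.05.

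Mbp, the most abundant of the sheath genes, stood at 664.7 ± 130 CPM in control cortex (SD, n = 5), 1204 ± 220.5 in amygdala (n = 5), 2103 ± 180.4 in accumbens (n = 5) and 3295 ± 548.5 in hippocampus (n = 4). Per kilobase of exon, Mbp had 78.5 CPM in the cortex and 389 in the hippocampus. On the same scale Cnp, a phosphodiesterase of the uncompacted sheath, had 33.6 and 130 CPM per kilobase. Enpp6, a choline-releasing phosphodiesterase of newly forming oligodendrocytes, was far below both, at 0.363 and 1.24 CPM per kilobase.

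**Figure D1:**
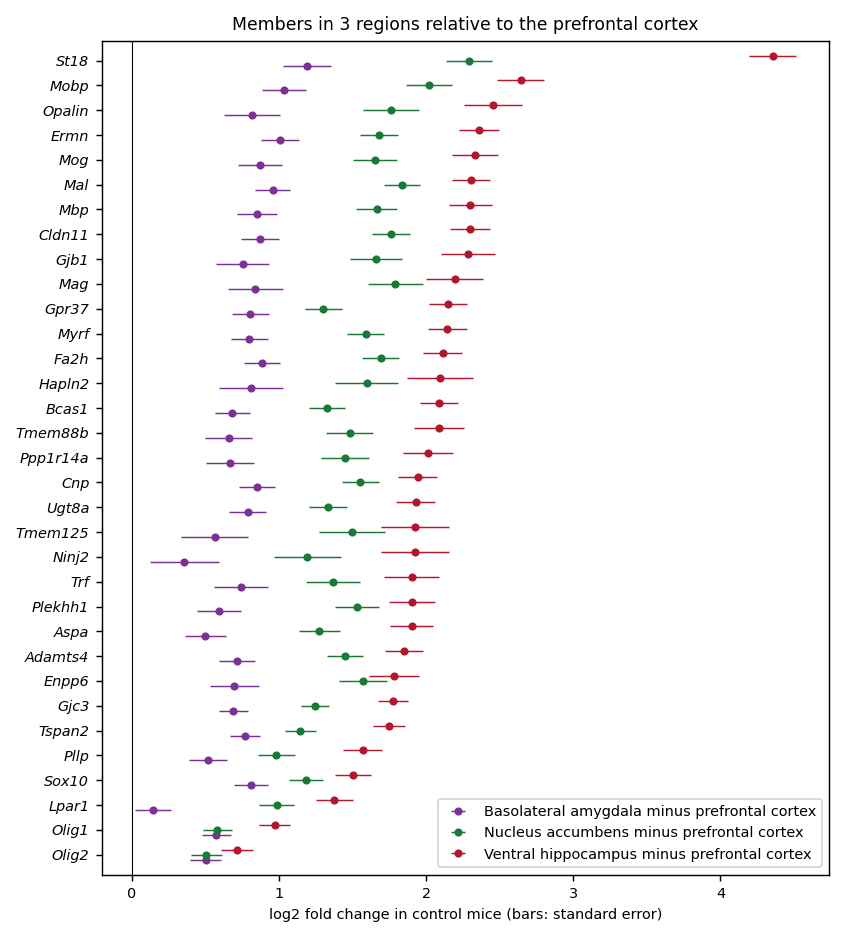
Each point is the log2 fold change of 1 of the 33 genes in control libraries of the accumbens, hippocampus or amygdala relative to the prefrontal cortex (5, 4, 5 and 5 libraries), with bars of 1 standard error. All points lie above 0; St18 in the hippocampus is the farthest, at 4.35, and Olig2 changes least there, at 0.72.

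All 33 genes were called lower in the cortex than in the accumbens and than in the hippocampus, where 29.7% and 20.1% of all genes tested were called in that direction. The median log2 difference of the list was -1.50 against the accumbens and -2.01 against the hippocampus. The cortex was also called lower than the amygdala for 30 genes (17.9% of all genes), with a median of -0.77. The exceptions were Tmem125, the lysophosphatidic acid receptor gene Lpar1 and the adhesion gene Ninj2, at -0.56 ± 0.23, -0.14 ± 0.12 and -0.36 ± 0.23 (SE).

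The accumbens was called lower than the hippocampus for 28 genes (24.6% of all genes, median -0.55) and higher than the amygdala for 31 (25.2%, median 0.79). The hippocampus was called higher than the amygdala for 32 (19.3%, median 1.35). Over the 4 regions together 72.9% of all genes tested were called, so a difference between regions was common in these data. In each pair the genes of the list ran in 1 direction, except that Olig2 between accumbens and amygdala (0.00117) changed sign with median-ratio scaling, with no filter and with DESeq2.

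By median, the sheath genes differed most between cortex and hippocampus, at -2.29. The 6 others followed at -1.97, then the enzymes and carriers at -1.90, the receptors at -1.76 and the transcription factors at -1.51. The ends of the range were both transcription factors. Olig2, which is needed to specify the lineage and is also made by precursors, moved least: 19.9 ± 2.36 CPM in control cortex, 28.4 ± 3.70 in amygdala, 28.2 ± 3.70 in accumbens and 32.9 ± 3.67 in hippocampus. Its accumbens, amygdala and hippocampus values overlapped, and the differences between them were not called (adjusted p = 0.994, 0.118 and 0.134 with edgeR). Between hippocampus and amygdala the call changed with the series of sample numbers as a covariate (0.23, adjusted p = 0.0375 with edgeR) and without amygdala control replicate 4 (0.27, 0.0497). Olig1, its neighbour and relative, likewise had 109.6 CPM in the accumbens and 110 in the amygdala.

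St18, which encodes a zinc-finger transcription factor, moved most. It had 2.74 ± 0.733 CPM in control cortex, 6.29 ± 1.42 in amygdala, 13.5 ± 1.31 in accumbens and 56.9 ± 5.21 in hippocampus. The hippocampal libraries stood far above all others, and the log2 difference from the cortex was 4.35 ± 0.16 (SE). For comparison, Sox10 differed by 1.51 ± 0.12 and Myrf by 2.14 ± 0.13 between hippocampus and cortex.

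Of 30 other oligodendrocyte and myelin genes, 29 were also called lower in cortex than in hippocampus (median -1.42), and 26 were called higher in hippocampus than in amygdala (median 1.01). The 9 genes of oligodendrocyte precursors had another order. Of these, 7 were called lower in the hippocampus than in the amygdala (median -0.62) and 7 lower in the cortex than in the amygdala (median -0.48).

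With the differences between the 28 groups removed, the genes still moved together from library to library. Over the 528 pairs of genes the median Pearson correlation of the deviations from the group mean was 0.58 in 99 libraries, and 0.69, 0.50, 0.76 and 0.52 in the cortex, accumbens, hippocampus and amygdala. Libraries share depth and dissection, so these are descriptions. Cnp (0.93) and Mbp (0.93) followed the mean of the other genes most closely.

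St18 did not follow it, at 0.11 over all libraries. Its correlation was 0.72 in the cortex and -0.66 in the hippocampus. Plekhh1 (0.16) and the proteoglycan-cleaving protease gene Adamts4 (0.36) were also low by Pearson's measure but not by Spearman's (0.52 and 0.65).

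Outside the list, genes of at least 3 log2 CPM that were among the most like its mean, over the same 99 libraries, were Gatm (0.89), which makes the precursor of creatine, Prr18 (0.89), Tmem63a (0.86), Plekhb1 (0.85), Galnt6 (0.84), S1pr5 (0.83), Litaf (0.82) and Sept4 (0.79). Of 10537 genes compared, 9 were above 0.8 and the median was -0.004. The precursor list ran at -0.16 with the same mean. The standard deviation within groups had a median of 0.22 log2 units for the list against 0.16 for 10566 genes of at least 3 log2 CPM on average. The list itself had no such limit, and Trf (0.43) and Ninj2 (0.38), with low counts here, were among its most variable. Of the exon bases of Trf 63.5% are shared with another gene on the same strand, and how such reads were counted is not given.

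Differences between conditions were tested first over all 7 conditions of a region at once. In the prefrontal cortex 11 of the 33 genes were called, where 0.137% of all genes tested (24 of 17517) were. These were Ermn, Gjc3, Aspa, Tspan2, Adamts4, Tmem88b, Myrf, Cldn11, Gjb1, Opalin and Fa2h, with adjusted p from 0.0258 to 0.0454. Of the 14 sheath genes 6 were called, of the 6 enzymes and carriers 3, of the 5 transcription factors 1, of the 2 receptors 0 and of the 6 others 1. At an unadjusted p below 0.05 there were 31 genes (5.87% of all genes), all but Hapln2 and Ninj2. All 33 had their highest mean in ketamine responders, and 29 had their lowest in resilient mice. DESeq2 called 26 of the 33. The 0.137% is the share by edgeR, and the share of all genes called by DESeq2 is not reported here.

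Ermn encodes ermin, a cytoskeletal protein of the myelinating cell. Its CPM were 29.22, 26.79 and 21.21 in ketamine responders, 26.38, 13.96 and 16.82 in non-responders, 17.01, 13.79 and 14.91 in susceptible saline mice, and 12.83, 11.31, 10.74 and 11.14 in resilient mice. Controls had 14.23, 17.73, 13.60, 13.70 and 11.50, and all 7 imipramine libraries lay between 12.90 and 15.20. The responders were all above the susceptible mice, 1 non-responder library lay among the responders, and the resilient libraries lay below the susceptible ones. Of the exon bases of Ermn 6.5% overlap Galnt5 on the other strand, and the libraries do not mark strand.

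Aspa encodes aspartoacylase, which frees acetate from N-acetylaspartate for myelin lipid. It had 12.01, 9.316 and 9.550 CPM in ketamine responders, 8.708, 6.369 and 6.901 in non-responders, 8.344, 5.960 and 6.898 in susceptible mice, 5.904, 5.276, 4.746 and 3.784 in resilient mice, and 6.493, 6.999, 6.407, 8.473 and 5.763 in controls. Imipramine libraries had 6.782, 5.604 and 5.987 in responders and 5.655, 5.864, 6.586 and 5.545 in non-responders. The 3 responder libraries were above all 22 others, and 3 of the 4 resilient libraries were below all libraries of other groups.

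**Figure D2:**
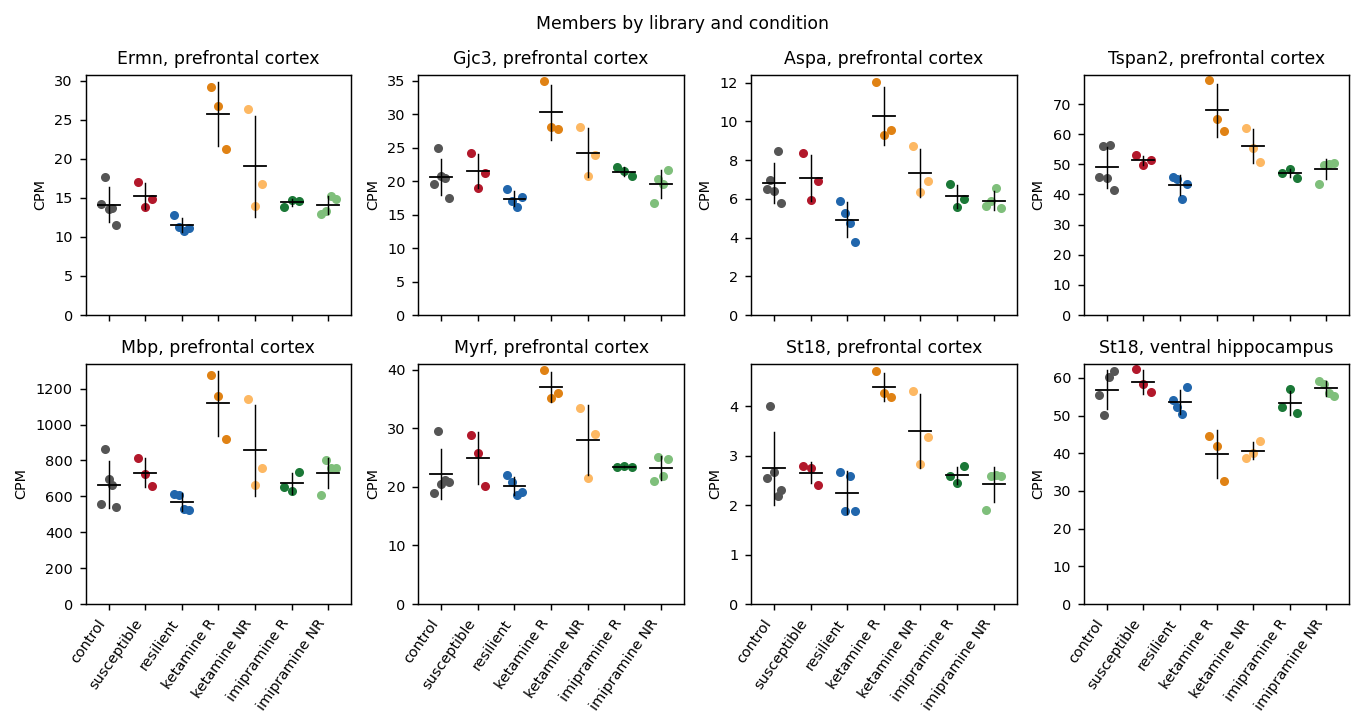
Points are CPM in single libraries for Ermn, Gjc3, Aspa, Tspan2, Mbp, Myrf and St18 in the prefrontal cortex and St18 in the hippocampus, by condition, each panel on its own axis. Ketamine responders are the highest group in the cortical panels, and both ketamine groups are the lowest in the hippocampal panel.

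The number of calls moved with single libraries. Without ketamine responder replicate 1 or 2, or without resilient replicate 2, 3 or 4, edgeR called 0 of the 33 over the 7 conditions. Without control replicate 2 it called 21, and without control replicate 5, 17. The shares of all genes called in these fits are not reported here. In other regions 0 genes were called in the accumbens (0%; 18 at unadjusted p below 0.05, against 3.63% of all genes; 4 by DESeq2), 1 in the hippocampus (St18, adjusted p = 0.00336; 2 by DESeq2; 0.535% of all genes were called, and 1 member against 6.14% of all genes had an unadjusted p below 0.05) and 0 in the amygdala (0.0109%; 18 at unadjusted p below 0.05, against 5.97%; 3 by DESeq2).

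**Figure D3:**
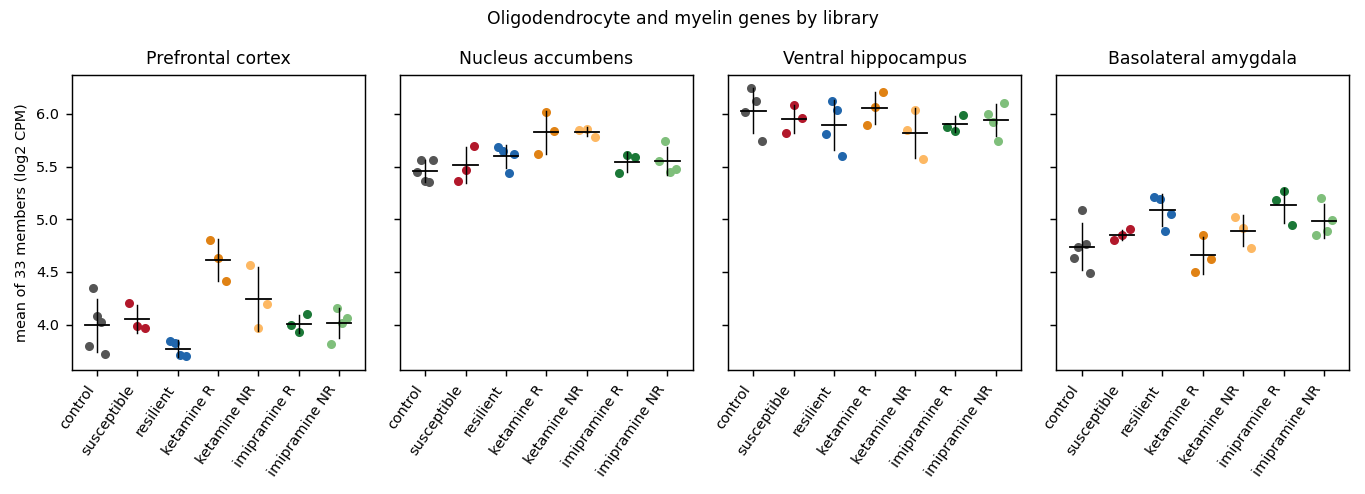
Points are the mean log2 CPM of the 33 genes in single libraries, by condition, in 4 panels for the regions; the line is the group mean and the bar 1 SD. In the cortex ketamine responders lie at 4.41 to 4.80 and resilient mice at 3.70 to 3.85.

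Set against susceptible saline mice, ketamine responders had more RNA of all 33 genes in the prefrontal cortex. The median log2 fold change was 0.57, from 0.28 for Olig1 to 0.84 for Gjb1, against a median of -0.0015 for all genes tested. By edgeR 0 of the 33 were called (0% of all genes), and by DESeq2 11 (share of all genes not reported here). At an unadjusted p below 0.05 there were 30 genes (6.18% of all genes), and for 29 the 3 responder and 3 susceptible libraries did not overlap (11.2% of all genes). The smallest adjusted p with edgeR was 0.127, for Adamts4.

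Mbp had 1277, 1159 and 917.1 CPM in responders and 815, 725.4 and 658.1 in susceptible mice. Every responder library was above every susceptible one, and the log2 fold change was 0.61 ± 0.18 (SE, 3 against 3 libraries). Mag, which joins the inner sheath to the axon, and Mog, on its outer face, gave 0.68 ± 0.21 and 0.72 ± 0.19, Mobp 0.67 ± 0.21 and Cnp 0.57 ± 0.14. Over the 14 sheath genes the median was 0.61, and 13 had an unadjusted p below 0.05.

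Gjb1, a connexin gene of the sheath, had 6.516, 7.169 and 5.853 CPM against 4.620, 3.170 and 3.135, the largest fold change of the list (0.84 ± 0.21). Adamts4 had 22.50, 19.99 and 17.21 CPM against 13.79, 11.22 and 12.25, a log2 fold change of 0.68 ± 0.15. Neither pair of groups overlapped. The 6 enzymes and carriers had a median of 0.54, with 5 at an unadjusted p below 0.05.

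The 5 transcription factors had a median of 0.41, and all 5 had an unadjusted p below 0.05. Myrf had 39.95, 35.22 and 35.96 CPM in responders against 28.87, 25.74 and 20.07 (0.57 ± 0.14), and Sox10 gave 0.33 ± 0.13. Olig1 had 89.26, 79.71 and 77.11 against 70.12, 66.07 and 66.23, the smallest fold change of the list, and its groups still did not overlap. St18, at 4.718, 4.262 and 4.181 against 2.793, 2.758 and 2.412, was higher too. The groups overlapped for Enpp6, at 3.835, 3.931 and 2.641 against 2.937, 2.853 and 2.557.

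Of the 30 other oligodendrocyte genes 28 were higher in cortical responders (median 0.37, 18 at unadjusted p below 0.05), among them Erbb3, a neuregulin receptor (0.65 ± 0.14, adjusted p = 0.127). The 22 genes of lipid synthesis did not run that way: 10 were higher, with a median of -0.015. Of the 9 precursor genes 6 were higher (median 0.15), and their summed level was 567.8 to 593.7 CPM in responders and 562.3 to 574.6 in susceptible mice. Astrocyte, microglia, neuron and endothelial lists had medians of 0.08, 0.02, -0.02 and 0.19. The 8 Schwann cell genes summed to 38.05 to 42.61 CPM in responders and 35.21 to 40.19 in susceptible mice, with Pmp2, a lipid carrier of peripheral myelin, at 0 in both groups.

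With each library left out in turn, the median of the 33 genes in cortical responders was between 0.45 and 0.66, lowest without responder replicate 1. The 8 choroid plexus genes summed to 185.5 to 224.2 CPM in responders and 182.6 to 871.0 in susceptible mice, with Otx2 at 0 in all responder libraries. The 6 that could be tested were lower in responders, with a median log2 fold change of -2.25, and susceptible replicate 2 held the high level. The part of this high level in the result was not tested.

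**Figure D4:**
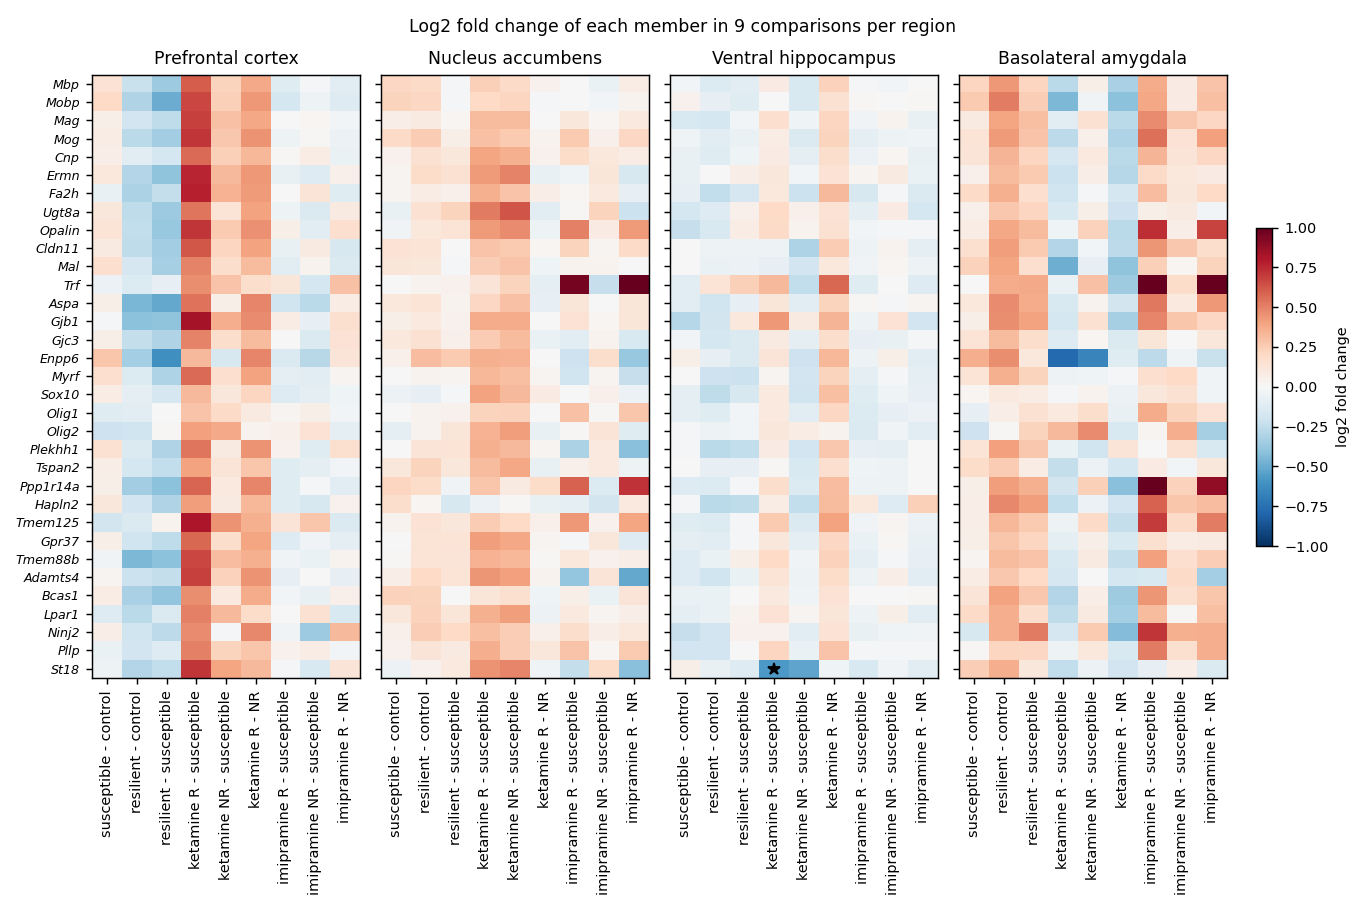
Colour gives the log2 fold change of the 33 genes (rows) in the 9 comparisons of each region (columns), cut at -1 and 1; a star marks a gene called by edgeR. The only star is St18 in the hippocampus of ketamine responders against susceptible mice.

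Cortical ketamine non-responders were between the other groups. Against susceptible mice 31 of the 33 genes were higher, with a median of 0.22, and 3 had an unadjusted p below 0.05 (4.34% of all genes). Non-responder replicate 1 decided that value: the median was 0.027 without it. Its Mbp was 1143 CPM, and the other replicates had 665.9 and 759.7. Olig2 had the smallest p (26.01, 19.40 and 21.81 CPM against 17.94, 16.52 and 17.27; 0.38 ± 0.11).

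Responders set directly against non-responders were higher for all 33 genes, with a median of 0.38, and 23 had an unadjusted p below 0.05 (4.54% of all genes), while edgeR called 0 and DESeq2 called 0. Aspa had the smallest p and the largest difference (0.49 ± 0.15), and Olig2 the smallest (0.03). Leaving out 1 library at a time gave medians from 0.25 to 0.57. The 2 groups shared no series of consecutive sample numbers: responders were in series 1 and 2, non-responders in series 3, 4 and 5. This direct comparison therefore cannot tell response from series.

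Resilient mice were at the other end in the cortex. Against susceptible mice 30 of the 33 genes were lower, with a median of -0.30, 14 had an unadjusted p below 0.05 (4.27% of all genes), and the groups did not overlap for 18 (6.72% of all genes). Mbp had 614.2, 605.0, 530.2 and 524.9 CPM in resilient mice, all below the 3 susceptible libraries. Enpp6 differed most, with 2.937, 2.853 and 2.557 CPM in susceptible mice and 1.925, 1.913, 1.860 and 1.579 in resilient mice (-0.61 ± 0.20), and Aspa had the smallest p (-0.51 ± 0.15). Against controls all 33 were lower, with a median of -0.22, and 9 had an unadjusted p below 0.05 (9.36% of all genes). In both comparisons edgeR and DESeq2 called 0 genes of the list. Against controls edgeR called 1 gene without control replicate 5, Tmem88b, and 1 with the series of sample numbers as a covariate, Aspa (-0.50, adjusted p = 0.0267 with edgeR).

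Susceptible and control mice were close in the cortex. The median difference of the list was 0.06, with 23 genes higher and 1 at an unadjusted p below 0.05 (3.1% of all genes), Olig2, at -0.21. Against susceptible mice the medians of the imipramine groups were -0.04 in responders and -0.07 in non-responders, with 0 genes at an unadjusted p below 0.05 in each (1.97% and 4.24% of all genes). Mbp was 652.2, 627.6 and 736.7 CPM in imipramine responders and 608.0, 802.4, 759.8 and 755.7 in non-responders.

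In the nucleus accumbens both ketamine groups lay above susceptible mice. Of the 33 genes 32 were higher in responders and 33 in non-responders, with medians of 0.33 and 0.31, and 15 and 16 had an unadjusted p below 0.05 (2.77% and 3.59% of all genes). By edgeR and by DESeq2 0 were called in either. Between responders and non-responders the median was 0.0008, with 17 genes higher and 16 lower, so the pattern did not separate the groups by response there.

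Ugt8a makes galactocerebroside, the characteristic galactolipid of myelin. It had 48.35, 45.50 and 49.15 CPM in susceptible mice, 59.56, 73.65 and 72.03 in responders (0.52 ± 0.14) and 83.62, 64.58 and 72.35 in non-responders (0.63 ± 0.14). The susceptible libraries were below all 6 ketamine libraries. Sox10 had 48.18, 53.92 and 52.82 CPM in susceptible mice and 58.79, 75.35 and 71.38 in responders (0.41 ± 0.10).

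Mbp overlapped in the accumbens, at 1994, 2240 and 3046 CPM in susceptible mice and 2251, 3519 and 2825 in responders. Of the 9 precursor genes all 9 were higher in responders (median 0.25) and 8 in non-responders (median 0.23). Their summed level was 493.5 to 546.1 CPM in susceptible mice, 533.3 to 580.4 in responders and 548.0 to 608.7 in non-responders, with none at 0 throughout a group. Choroid plexus genes summed to 155.7 to 166.2 CPM in susceptible mice, 181.9 to 215.2 in responders and 195.5 to 225.7 in non-responders. Striatal neuron genes were lower in value for 7 of 10 in responders (median -0.12) and 10 of 10 in non-responders (median -0.33), with overlapping sums of 5768 to 9211 CPM in susceptible mice, 6811 to 8029 in responders and 4178 to 8340 in non-responders. Neuron genes were lower in value for 10 of 10 and 8 of 10 (medians -0.14 and -0.15), with sums of 6204 to 9397, 6252 to 7821 and 5727 to 7411 CPM. Their part in the result, and that of the other lists, was not tested.

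In the ventral hippocampus a single gene of the list was called. St18 was lower in ketamine responders, where 0.67% of all genes were called, and in non-responders by a similar amount that did not pass. It had 62.33, 58.28 and 56.20 CPM in susceptible mice, 44.63, 42.04 and 32.63 in responders and 38.75, 40.12 and 43.17 in non-responders. The 18 libraries of the other conditions ranged from 50.19 to 62.33, above all 6 ketamine libraries.

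The log2 fold change of St18 was -0.57 ± 0.09 in responders (adjusted p = 0.00684 with edgeR) and -0.53 ± 0.10 in non-responders (adjusted p = 0.0612 with edgeR and 5.72e-04 with DESeq2; 0.00563% of all genes were called by edgeR). Responders and non-responders differed by -0.04 ± 0.10. Without susceptible replicate 1 the adjusted p for responders was 0.0739, with a log2 fold change of -0.53. Without responder replicate 3 it was 0.0439, with -0.45.

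The remaining genes of the list did not follow St18. In hippocampal responders 29 of the 33 genes were higher (median 0.11), and in non-responders 28 were lower (median -0.11). Mbp was 3073, 3473 and 3134 CPM in susceptible mice, 3054, 3436 and 3798 in responders and 2774, 3339 and 2580 in non-responders, with all groups overlapping.

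Some markers of neighbouring tissue were higher in the hippocampal ketamine groups, where St18 was lower. Thalamus and hypothalamus genes summed to 73.49 to 75.52 CPM in susceptible mice, 201.5 to 867.1 in responders and 185.5 to 220.0 in non-responders, and 9 of 10 were called higher in responders (median 2.98). Choroid plexus genes summed to 211.1 to 259.3 CPM in susceptible mice, 293.8 to 3536 in responders and 211.4 to 2769 in non-responders. Of the 10 meningeal and mural genes 2 were called higher in responders (median 0.77). No gene of these 3 lists was at 0 throughout a group. One control library, replicate 1, had a mean of 3.95 log2 CPM over the thalamus and hypothalamus genes, within the 3.70 to 5.82 of the ketamine libraries, and its St18 was 55.34 CPM, above all 6 of them. That was a single library near the low end of the range. The part of these lists in the St18 result was not tested.

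The basolateral amygdala ran the other way from the cortex in resilient mice. Against controls all 33 genes were higher, Olig2 by no more than 0.0156 and with a change of sign without control replicate 2 or 5 or resilient replicate 1 (-0.0273, -0.0230 and -0.00747). The median was 0.36, and 20 had an unadjusted p below 0.05 (5.61% of all genes), while edgeR and DESeq2 called 0. Mobp, a basic protein of compact myelin, had 331.5, 394.1, 468.6, 390.6 and 295.9 CPM in controls and 639.1, 569.2, 423.9 and 502.2 in resilient mice (0.51 ± 0.14, adjusted p = 0.326 with edgeR). Resilient replicate 3 and control replicate 3 overlapped, and no gene of the list had groups that did not overlap (1.69% of all genes).

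Striatal neuron markers moved with the myelin genes here: all 10 were higher in resilient amygdala (median 1.26), with summed levels of 654.5 to 1219 CPM in controls and 1034 to 3145 in resilient mice. Ependymal genes summed to 9.195 to 31.24 CPM in controls and 8.731 to 11.45 in resilient mice, and 8 of 8 were lower (median -1.26). No gene of either list was at 0 throughout a group. Their part in the result was not tested. Against susceptible mice the 33 genes were also all higher in resilient mice, with a smaller median of 0.23. Of these, 1 had an unadjusted p below 0.05 (1.38% of all genes), and edgeR called 0.

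Ketamine responders were lower than susceptible mice in the amygdala for 31 of the 33 genes (median -0.17), with 4 at an unadjusted p below 0.05 (4.22% of all genes). Mal, a raft protein of myelin membrane, had 120.6, 149.0 and 153.2 CPM in susceptible mice and 88.45, 113.3 and 96.54 in responders (-0.49 ± 0.14). The groups did not overlap for Mal, nor did they for 14.8% of all genes. Enpp6 had 4.489, 4.373 and 5.725 CPM in susceptible mice, 2.896, 3.226 and 2.266 in responders (-0.78 ± 0.25) and 2.893, 3.142 and 3.137 in non-responders (-0.66 ± 0.25). Olig2 was on the other side, with 0.33 in responders and 0.48 ± 0.15 in non-responders. All 8 choroid plexus genes were higher in value in responders (median 4.25), which rested on replicate 2 alone: mean log2 CPM over the list was 0.417, 6.179 and 0.486 in responders and 1.015, 1.299 and 0.902 in susceptible mice. Its summed level was 152.4 to 162.1 CPM in susceptible mice and 113.6 to 4050 in responders, with none at 0 throughout a group, and its part was not tested.

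Whether the ketamine difference itself varied between regions was tested in 1 fit of all 99 libraries. For responders against susceptible mice 3 of the 33 genes were called, where 0.662% of 19024 genes were: St18 (adjusted p = 0.00174), Mal (0.00937) and Fa2h (0.0284), all with edgeR. At an unadjusted p below 0.05 there were 22 (4.94% of all genes). St18 had log2 fold changes of 0.72 in the cortex, 0.45 in the accumbens, -0.25 in the amygdala and -0.57 in the hippocampus. Mal had 0.50, 0.24, -0.49 and -0.09 in the same order.

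Fa2h, which makes the hydroxylated fatty acids of myelin galactolipid, had 0.78, 0.36, -0.20 and 0.11. In the cortex it had 25.49, 21.57 and 18.35 CPM in responders against 13.72, 12.40 and 12.11. In the amygdala it had 22.59, 28.02 and 22.97 against 27.90, 27.24 and 30.31, with overlap. With 1 of the 24 libraries left out at a time, St18 was called in all 24 fits, and the number called was between 1, without cortical responder replicate 1, and 5, without cortical responder replicate 3 or amygdala responder replicate 2.

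In the same fit 0 of the 33 were called for resilient against control mice, where 0.121% of all genes were. At an unadjusted p below 0.05 there were 22 (5.8% of all genes), and Aspa was nearest the threshold (adjusted p = 0.054 with edgeR; DESeq2 called 1 gene of the list). For ketamine non-responders against susceptible mice 0 were called (0.00526% of all genes; 5 at an unadjusted p below 0.05, against 2.93% of all genes), and in the remaining 6 of the 9 comparisons 0 were called as well, and 0 by DESeq2. At an unadjusted p below 0.05 there were 13 for ketamine responders against non-responders (2.38% of all genes), 7 for resilient against susceptible mice (1.1%), 3 for imipramine responders against susceptible mice (5.83%), 2 for imipramine responders against non-responders (12%), and 0 for susceptible against control mice (1.04%) and for imipramine non-responders (0.799%). In the amygdala, as in the cortex, ketamine responders were in series 1 and 2 and non-responders in series 3, 4 and 5. Response and series cannot be told apart in those regions.

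Imipramine responders gave the widest fold changes of the list between conditions, in a pair of libraries. In amygdala replicate 2 and accumbens replicate 3 the difference of a gene from the other libraries of its region followed the length of its exons, with Spearman's rho of -0.69 and -0.66 over 10453 genes, so that short genes were high. The other 97 libraries had rho from -0.61 to 0.57, with a median of 0.15, and the nearest was amygdala ketamine non-responder replicate 1. By rank from the most negative, libraries 1 to 24 were all in series 3 or 4 of the sample numbers. Among them were cortical control replicate 3 (-0.43) and hippocampal resilient replicate 2 (-0.45), so the relation was not limited to imipramine. The part of the series was not tested.

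Over the 33 genes alone rho was -0.65 and -0.56 in those libraries, within the range of the other 97 (-0.71 to 0.70). Ppp1r14a, which encodes an inhibitor of myosin phosphatase and has 1.37 kb of exon, differed by 1.87 and 1.46 log2 units from the other libraries of the region. Trf, the transferrin gene, differed by 2.24 and 1.87, and 63.5% of its exon bases are shared with Gm20425 on the same strand. Plekhh1, with 6.72 kb, differed by -2.002 and -3.191, and Adamts4, with 4.81 kb, by -1.50 and -1.93. Some long genes went the other way: Mbp, with 8.47 kb, differed by 0.66 and 0.28, and Mobp, with 6.85 kb, by 0.52 and 0.33.

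**Figure D5:**
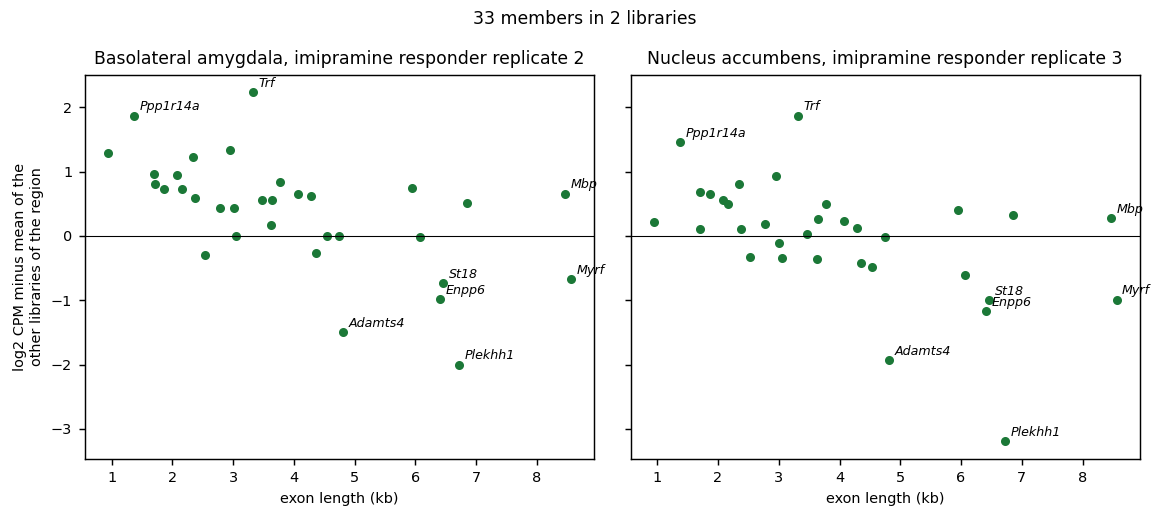
Points are the 33 genes in amygdala imipramine responder replicate 2 and accumbens imipramine responder replicate 3; x is exon length in kilobases and y the log2 CPM minus the mean of the other libraries of that region. Points tend to fall from left to right, with Ppp1r14a and Trf high, Plekhh1 low and the long gene Mbp above 0 in both panels.

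Against susceptible mice the amygdala imipramine responders were higher for 30 of the 33 genes, with a median of 0.37, and 16 had an unadjusted p below 0.05 (12.2% of all genes), while edgeR and DESeq2 called 0. Ppp1r14a had 8.826, 26.15 and 7.548 CPM in responders against 6.438, 6.962 and 6.548 (1.11 ± 0.33), and Trf 3.445, 12.51 and 2.757 against 2.212, 2.312 and 2.784 (1.39 ± 0.45). The middle value of each trio of responders is replicate 2. Without it the median of the list was 0.22. Mobp, with 526.7, 625.1 and 601.4 CPM against 375.1, 486.6 and 490.5, was above the susceptible mice in all 3 libraries. Striatal neuron genes were higher in value for 10 of 10 (median 0.62), with sums of 1214 to 1703 CPM in susceptible mice and 1430 to 3577 in responders, and their list ran at a Pearson correlation of 0.65 with the mean of the 33 genes over the 25 amygdala libraries. Choroid plexus genes summed to 152.4 to 162.1 CPM in susceptible mice and 140.5 to 1248 in responders, highest in replicate 1. The part of these lists was not tested.

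In the accumbens the same comparison had a median of 0.05, with 23 genes higher and 5 at an unadjusted p below 0.05 (11.6% of all genes). Plekhh1 had 44.76, 47.62 and 4.877 CPM in the responder libraries, Adamts4 32.40, 36.48 and 9.986, and Trf 3.577, 4.312 and 13.84, so that replicate 3 alone was far from the others in each. The part of exon length in these differences was not tested. Imipramine non-responders had medians against susceptible mice of -0.07 in the cortex, 0.04 in the accumbens, 0.15 in the amygdala and -0.01 in the hippocampus, with 0, 0, 1 and 0 genes at an unadjusted p below 0.05 (4.24%, 0.734%, 1.39% and 0.952% of all genes).

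In the hippocampus the list differed little outside the ketamine groups: the medians of the other comparisons with control or susceptible mice lay between -0.13 and -0.01, and 0 genes had an unadjusted p below 0.05 in them (0.935 to 2.08% of all genes). In the accumbens susceptible and resilient mice had medians of 0.05 and 0.14 against controls, again with 0 genes at that level (0.875% and 1.64% of all genes). In the amygdala susceptible mice had 0.09 against controls. Of the 36 comparisons, 35 had 0 genes of the list called by edgeR, with 0 to 30 below an unadjusted p of 0.05; by DESeq2, 0 to 11 of the list were called in them.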

How the data were processed

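The authors deposited 1 table of raw counts in whole numbers, not normalized, with 37991 Ensembl genes as rows and 99 libraries as columns. Per the labels' protocols, RNA was extracted with TRIzol from tissue pooled from 2 mice, selected for poly-A, made into libraries with a kit that does not mark strand, and read as pairs of 50 bp. HTSeq 0.6.0, TopHat2 2.0.9 and Bowtie2 2.1.0 and build NCBIM37 are named in the submitters' processing notes; how reads were counted and on which annotation is not given in the sources used here. Libraries are called biological replicates, with no word on animals shared between regions, so p-values measure the spread between these libraries. No 2 libraries were identical among the 132 within-group pairs. Symbols were found for 32919 identifiers (86.6%), and exon lengths and overlaps came from an annotation of a later build.

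In R 4.3.3, edgeR 4.0.16 was fitted in each region separately, with 7 condition means (filterByExpr with a minimum count of 10, TMM scaling, robust quasi-likelihood F-test), leaving 17517, 17718, 17758 and 18392 genes in the cortex, accumbens, hippocampus and amygdala. All 33 genes passed. Regions were compared in the control libraries (17720 genes), and variation of a difference between regions in a fit of all 99 libraries (19024 genes). p-values were adjusted with the Benjamini-Hochberg method over all genes of a fit, and fold changes are on the log2 scale with standard errors. Levels were computed as CPM, and as log2 CPM with a prior count of 2 for means and correlations. The fits were tested on simulated data. Alternatives were median-ratio scaling, no filter, DESeq2 1.42.0, the series of sample numbers as a covariate and each library left out in turn; the 2 imipramine responder libraries with the most negative relation to exon length were left out together as an alternative chosen after seeing the data.

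The genes, the marker lists and the tests were chosen with earlier results of these data known. Named genes were 12 reference genes of the lineage, called genes, the gene with the smallest p and both ends of the range in each comparison, the 10 most like genes outside the list (some are not reported here), and up to 2 genes of another list; other named genes and the printed promoters were chosen after their values were seen. Promoters are from RefSeq. A gene whose exons are shared with another, such as Trf and Pllp, cannot be separated from it with certainty.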

Additional observations from a re-analysis of the deposited data

Results flagged for a closer look

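In groups of 4 or 5 libraries, a library was noted where its gap to the nearest other library exceeded Dixon's 95% value for the group's range. Of 408 values tested 20 (4.90%) were noted, and chance flags about 1 in 20 groups. In the cortex these were control replicate 2 for Myrf (29.58 CPM) and Adamts4 (17.38), control replicate 1 for Ninj2 (0.3246), resilient replicate 2 for Pllp (23.19), and imipramine non-responder replicate 1 for Tspan2 (43.61), Bcas1 (30.71) and St18 (1.898). In the accumbens control replicate 5 stood out for Gjb1 (14.15 CPM), resilient replicate 3 for Tmem125 (7.387), and imipramine non-responder replicate 2 for Mbp (2656), Cnp (426.5), Cldn11 (162.4) and Hapln2 (27.74). In the hippocampus control replicate 4 stood out for Lpar1 (31.43 CPM) and imipramine non-responder replicate 2 for Hapln2 (28.74). In the amygdala control replicate 3 stood out for Mal (144.4 CPM), Aspa (13.07) and Gjc3 (37.41), and resilient replicate 3 for Cnp (227.6) and Fa2h (25.31).

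The difference between ketamine responders and susceptible mice itself varied between regions for St18 (adjusted p = 0.00174), Mal (0.00937) and Fa2h (0.0284) with edgeR. St18 was higher in value in the cortex and lower in the hippocampus.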

How the results depend on the processing

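The alternatives were median-ratio scaling, no filter on low counts, DESeq2 and the series covariate. Under them 0 of 168 medians of the 33 genes moved by more than the spread between libraries. That spread was the pooled SD within groups of the mean log2 CPM (0.13 to 0.20), and a change of sign was not counted. With 1 library left out, 3 of 303 moved. These were accumbens imipramine responders against susceptible mice (-0.0537 to 0.211), cortical ketamine non-responders (0.0267 to 0.339) and cortical responders against non-responders (0.246 to 0.574). Counts of called genes depended more on the tool. The shares of all genes called by DESeq2, with the series covariate or with a library left out are not reported here. DESeq2 called 26 in the cortex, 4 in the accumbens, 3 in the amygdala and 2 in the hippocampus over the 7 conditions, 11 in cortical ketamine responders, 1 in hippocampal ketamine non-responders and 1 for resilient against control mice varying with region. With the series covariate 1 was called in cortical ketamine responders, 1 for resilient against control mice in the cortex (Aspa, -0.498, adjusted p = 0.0267 with edgeR) and 1 for that difference varying with region.

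With 1 library left out, calls ranged from 0 to 21 over the 7 cortical conditions, 0 to 1 for cortical resilient against control mice, 0 to 1 for hippocampal ketamine responders and 1 to 5 for ketamine responders varying with region. They ranged from 0 to 4 for accumbens imipramine responders against susceptible mice (4 without responder replicate 1), 0 to 6 against non-responders (6 without responder replicate 1, 3 without replicate 2) and 0 to 6 in the amygdala against non-responders (6 without responder replicate 3, 2 without replicate 1). The cause was not tested.

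Small differences changed sign. St18 between hippocampal responders and non-responders became 0.00602 with the series covariate and ranged from -0.141 to 0.0917 with 1 library left out (4.36e-04 without non-responder replicate 3). Olig2 in resilient against control amygdala (0.0156) ranged up to 0.0783 and was -0.0273 without control replicate 2, -0.0230 without control replicate 5 and -0.00747 without resilient replicate 1. Olig2 between accumbens and amygdala (0.00117) ranged up to 0.0628 with 1 library left out and was -0.0233 with median-ratio scaling, -0.0354 with no filter, -0.0232 with DESeq2, and -0.0854, -0.0445 and -0.0447 without accumbens control replicate 2, amygdala control replicate 2 and amygdala control replicate 5. Enpp6 in amygdala imipramine responders was -0.263 and ranged from -0.606, without responder replicate 1, to 0.0818, without replicate 2. Leaving out both imipramine responder libraries with the most negative relation to exon length left the imipramine differences varying with region at 0 calls. No paired analysis was possible because the labels carry no replicate numbers shared between groups; the series covariate only groups consecutive sample numbers. Depth limits Ninj2 most, with 6 to 152 counts per library.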

Other observations

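Outside the list, the genes called over the 7 cortical conditions included Ttyh2 and Unc5b, a netrin receptor gene, chosen after their values were seen. Both had their highest mean in ketamine responders and their lowest in resilient mice (adjusted p = 0.0258 for each with edgeR).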
